A study of Mus musculus with 12 samples.

Results

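Complement is a cascade of plasma and tissue proteins that marks cells, debris and synapses for removal. In its classical branch, C1q binds a target and activates the proteases C1r and C1s, which cleave C4 and lead to the cleavage of C3. The fragments released from C3 and C5 act on the receptors C3ar1 and C5ar1, and the inhibitor encoded by Serping1 blocks C1r and C1s. In the brain, C1q comes mainly from microglia, the resident macrophages, while C3 and C4 transcripts are also made by astrocytes and rise in reactive tissue.

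The 9 complement genes described here were matched by symbol, through GENCODE M21, to the Ensembl identifiers of a table of 49671 mouse genes, and all 9 were found. They are the C1q chain genes C1qa, C1qb and C1qc, the protease gene C1ra, the component genes C4b and C3, the inhibitor gene Serping1, and the receptor genes C3ar1 and C5ar1. All 9 passed the filter on low counts, as did 17812 genes in all, although C1ra had at most 15 reads in any library and C5ar1 likewise.

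RNA came from formalin-fixed, paraffin-embedded mouse brain. There were 12 libraries, 3 in each of 4 groups named in the labels: IDH1_R132H tumours (carrying the glioma hotspot mutant of isocitrate dehydrogenase 1), IDH1WT tumours, PDGFA tumours (labelled with the gene of a platelet-derived growth factor chain) and normal brain. Tumour-bearing mice had the genotype N::TVA with lox/lox alleles that include Cdkn2a and Atrx. Normal brains are labelled with the same lox/lox alleles and as TVA negative, so the floxed alleles are shared by all 4 groups while TVA, the receptor through which avian leukosis-type vectors enter cells, is not. The labels do not give the vectors or the Cre source, whether the IDH1 tumours also carried PDGFA, or the age, sex, litter or batch of the animals. The study's stated aim was to find the glioma subtype of the IDH1 mutant and wild-type tumours.

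Libraries held 6507923 to 14277395 counted reads. Where 3.71% of all genes passed the test as higher in tumours, markers of oligodendrocyte precursors, which many gliomas express, did so for 7 of 7 genes. Their summed level was 1896 to 4629 CPM in IDH1_R132H tumours, 1340 to 4456 CPM in IDH1WT tumours and 355.2 to 2509 CPM in PDGFA tumours, against 215.1 to 217.6 CPM in normal brain. Neuron markers summed to 3148 to 6950 CPM in IDH1_R132H tumours, 2734 to 5244 CPM in IDH1WT tumours and 2892 to 7236 CPM in PDGFA tumours, against 6084 to 6385 CPM in normal brain. None of the 10 neuron markers was called by edgeR in tumours against normal brain, 2 had an unadjusted p under 0.05, 0 had a log2 fold change above 0 and the median was -0.46; their part in the complement values was not tested. CPM is the usual read count relative to library size, here with library sizes scaled by the trimmed mean of M-values. A pair of libraries stood apart. In PDGFA tumour 1 the precursor markers (355.2 CPM) were the lowest of the tumours, the astrocyte markers summed to 1008 CPM and the microglia markers to 60.26 CPM, each the lowest of the 12 libraries, while the oligodendrocyte markers summed to 11240 CPM, the highest. In IDH1_R132H tumour 3, 46.2% of reads fell on loci resembling ribosomal RNA, against 2.95% to 19.5% elsewhere. Tests of the 9 genes in tumours against normal brain are given with and without PDGFA tumour 1. That library was set apart on values of these same data, so calls gained without it were partly built into the choice. Nothing in the labels says how many animals or blocks the 3 libraries of a group came from, so p-values measure the spread between these libraries.

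In the RefSeq table (GRCm38.p6), 6 of the 9 genes had a promoter; C1qa, C4b and Serping1 were not matched. The windows below end just before the first annotated transcript start, run 5′ to 3′ on the gene's strand and are shown for C1qb, one of the 3 C1q chain genes that varied together across the libraries, and for C3 and C3ar1, a component and the receptor of its fragment. Capitals mark matches, on either strand, to GAGGAA (a core bound by ETS factors such as PU.1), TTGCNNAA (C/EBP type) or TTCNNNGAA (STAT type), where N is any base.
C1qb, minus strand, chr4:136886201-136886450: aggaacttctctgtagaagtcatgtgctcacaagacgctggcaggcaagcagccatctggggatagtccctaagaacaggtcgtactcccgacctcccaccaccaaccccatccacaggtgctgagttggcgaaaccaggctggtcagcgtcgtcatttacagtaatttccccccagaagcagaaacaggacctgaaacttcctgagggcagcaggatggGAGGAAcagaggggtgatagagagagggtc
C3, minus strand, chr17:57228137-57228386: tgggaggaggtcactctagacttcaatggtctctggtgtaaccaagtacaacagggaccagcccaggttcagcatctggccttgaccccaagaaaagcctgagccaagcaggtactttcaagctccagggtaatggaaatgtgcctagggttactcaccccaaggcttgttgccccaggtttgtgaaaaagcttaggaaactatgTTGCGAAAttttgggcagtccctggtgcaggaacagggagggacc
C3ar1, minus strand, chr6:122856162-122856407: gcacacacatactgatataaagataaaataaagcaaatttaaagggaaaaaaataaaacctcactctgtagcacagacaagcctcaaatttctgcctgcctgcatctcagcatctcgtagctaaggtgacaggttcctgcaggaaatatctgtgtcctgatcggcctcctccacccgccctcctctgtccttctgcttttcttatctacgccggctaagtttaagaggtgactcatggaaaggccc
The C1qb window held 1 match to GAGGAA, 24 bases before its end, and the C3 window held 1 match to TTGCNNAA, 37 bases before its end. No pair of matches overlapped, and none of the 3 motifs was found in the C3ar1 window. Of all 32851 promoters in the table, 23.25% held GAGGAA, 9.56% TTGCNNAA and 7.02% TTCNNNGAA in the 250 bases before the start, so the single matches describe these letters and nothing more.

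The data show C4b above every normal brain in all 9 tumours, whichever genotype group they came from. Most of the other genes, C1q, C3, Serping1 and C3ar1, were also higher in 8 of the 9 tumours than in any normal brain, but PDGFA tumour 1 lay at or below the normal level and these genes missed the threshold when it was included. C1ra, with few reads, gave no detectable difference, and none of the 9 genes passed the test between tumour groups. With edgeR's quasi-likelihood test and Benjamini-Hochberg adjustment over all tested genes, 1 of the 9 genes passed an adjusted p of 0.05 in all tumours against normal brain, where 5.22% of all genes passed (3.71% as higher). The log2 fold change was above 0 for 9 of 9 genes, with a median of 1.52, against a median of -0.01 over all genes, of which 48.7% were above 0. Without PDGFA tumour 1, 7 of the 9 passed, all as higher, where 13.5% of all genes passed (8.60% as higher). In the bulk tissue, more cells of a type and more RNA per cell cannot be told apart.

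**Figure D1:**
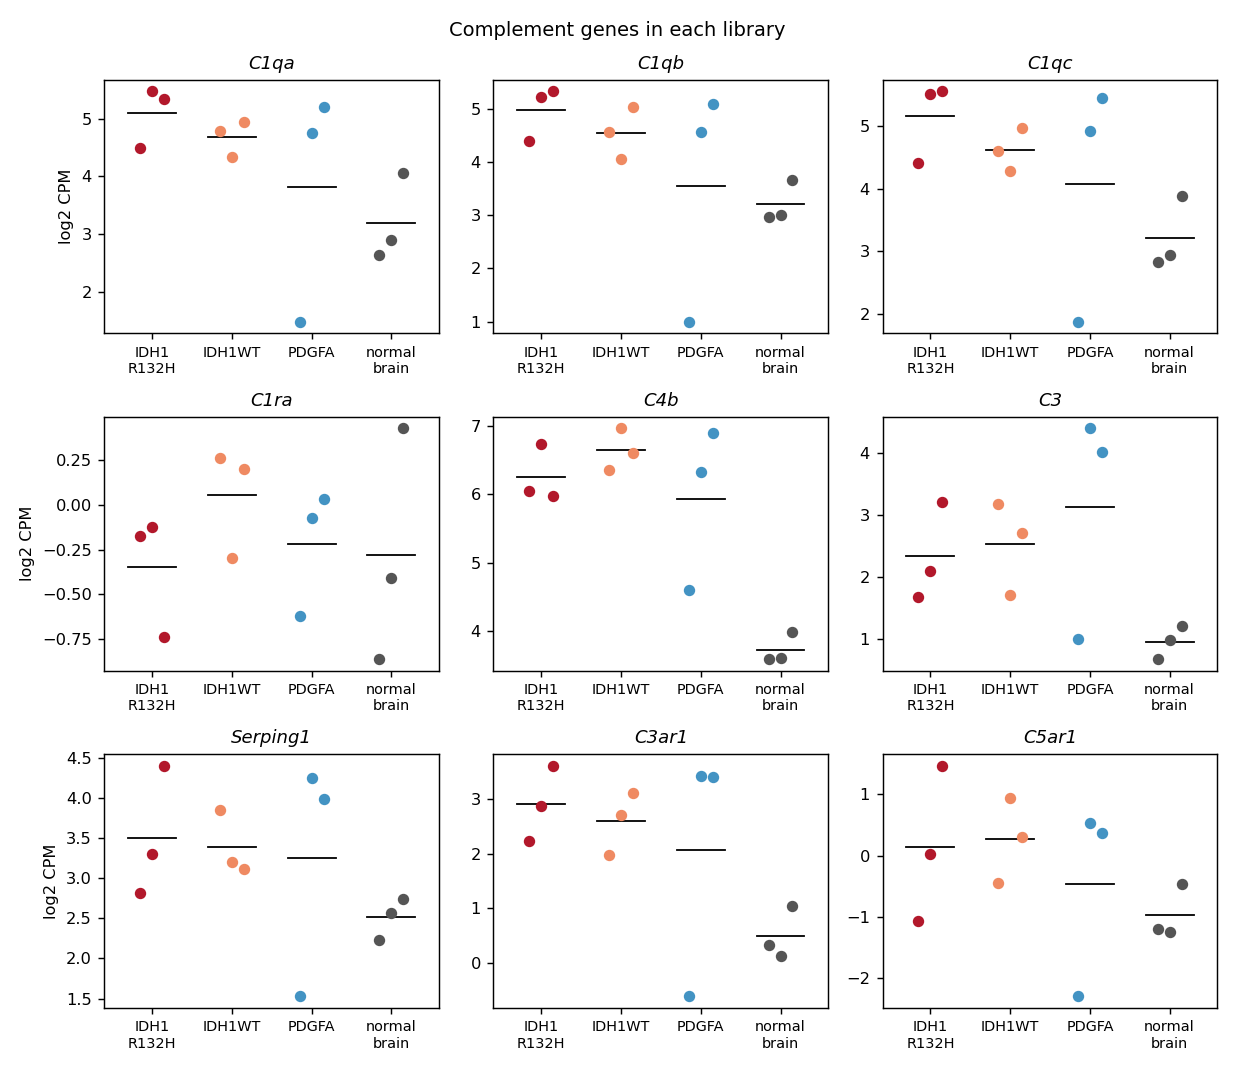
Level of each of the 9 complement genes as log2 CPM (prior count of 2) in the 3 libraries of each group. Points are libraries, horizontal lines are group means on this scale, and the vertical axis differs between panels. C4b is the only panel in which all 9 tumours lie above all 3 normal brains, and the lowest PDGFA point is PDGFA tumour 1 in every panel.

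The 3 C1q genes encode the chains of the recognition molecule. They lie side by side on the minus strand of chromosome 4 (GRCm38), C1qb at chr4:136880129-136886187, C1qc at chr4:136889804-136893065 and C1qa at chr4:136895917-136898803, within 18.7 kb. C1qa measured 22.4, 44.3 and 40.5 CPM in IDH1_R132H tumours, 27.4, 19.9 and 30.7 CPM in IDH1WT tumours and 2.57, 26.7 and 36.7 CPM in PDGFA tumours, against 6.005, 7.24 and 16.4 CPM in normal brain. All tumours but PDGFA tumour 1 exceeded the highest normal brain, and PDGFA tumour 1 was below the lowest. The fold change was 2.74 in tumours over normal brain (log2 1.45, SE 0.57, edgeR adjusted p 0.148). Without PDGFA tumour 1 it was 3.07 (log2 1.62, SE 0.33, edgeR adjusted p 0.00787).

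C1qb followed the same pattern, with 20.9, 36.8 and 39.9 CPM in IDH1_R132H tumours, 23.3, 16.3 and 32.4 CPM in IDH1WT tumours and 1.79, 23.5 and 33.5 CPM in PDGFA tumours, against 7.62, 7.79 and 12.4 CPM in normal brain. C1qc had 21.1, 45.2 and 46.8 CPM in IDH1_R132H tumours, 24.1, 19.3 and 31.2 CPM in IDH1WT tumours and 3.47, 30.1 and 43.5 CPM in PDGFA tumours, against 6.93, 7.46 and 14.5 CPM in normal brain. For both, PDGFA tumour 1 was the lowest of the 12 libraries and the other tumours exceeded every normal brain. The log2 fold change in tumours over normal brain was 1.41 for C1qb (SE 0.58, edgeR adjusted p 0.159) and 1.57 for C1qc (SE 0.56, edgeR adjusted p 0.113). Without PDGFA tumour 1, both passed, at 1.59 (SE 0.29, edgeR adjusted p 0.00451) and 1.74 (SE 0.32, edgeR adjusted p 0.00480).

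The chains kept nearly the same proportions. Of the reads on the 3 genes, C1qa took 31.8% to 36.6% in the tumours and 29.2% to 37.9% in normal brain, C1qb took 22.9% to 34.3% in the tumours and 28.6% to 37.1% in normal brain, and C1qc took 32.2% to 44.3% in the tumours and 33.2% to 33.7% in normal brain. The widest departures came from PDGFA tumour 1, with only 70 reads, where the exact (Clopper-Pearson) 95% interval ran from 13.7% to 34.4% for C1qb and from 32.4% to 56.7% for C1qc. Such intervals cover counting error only. Across the 12 libraries Pearson's r of log2 CPM was 0.98 between C1qa and C1qb, 0.99 between C1qa and C1qc and 0.98 between C1qb and C1qc, as a description of libraries that share the tumour and normal groups.

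C1ra, a gene for the protease C1r, lies at chr6:124512405-124523443, near its close copy C1rb, so that reads shared by the copies are uncertain. It had 5, 7 and 2 reads in IDH1_R132H tumours, 15, 5 and 10 reads in IDH1WT tumours and 4, 9 and 9 reads in PDGFA tumours, against 3, 5 and 13 reads in normal brain. The groups overlapped throughout, with 0.705 ± 0.202 CPM in tumours (SD, n = 9) and 0.678 ± 0.411 CPM in normal brain (SD, n = 3). The log2 fold change was 0.03 (SE 0.43, 95% interval -0.96 to 1.02, edgeR adjusted p 0.987). A change of either sign within that interval is not excluded at this depth, and the interval is not a limit of detection for the adjusted test. Without PDGFA tumour 1 the log2 fold change of C1ra was 0.095 (SE 0.48, edgeR adjusted p 0.922).

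C4b encodes a form of C4, the component that C1s cleaves, at chr17:34728380-34743882. It measured 65.8, 106.4 and 62.4 CPM in IDH1_R132H tumours, 81.3, 124.1 and 97.0 CPM in IDH1WT tumours and 24.0, 79.9 and 118.1 CPM in PDGFA tumours, against 11.9, 12.1 and 15.7 CPM in normal brain. Even PDGFA tumour 1, the lowest tumour, was above the highest normal brain, and C4b was the only one of the 9 genes whose tumour and normal libraries did not overlap, where 4.67% of all tested genes were higher without overlap. C4b rose 6.31-fold in tumours (log2 2.66, SE 0.41, edgeR adjusted p 0.0125), 35th by p of 17812 genes. Without PDGFA tumour 1 the rise was 6.92-fold (log2 2.79, SE 0.24, edgeR adjusted p 0.000888). The call was lost when normal brain 1, 2 or 3 was left out, with log2 fold changes of 2.58, 2.59 and 2.80 and edgeR adjusted p of 0.101, 0.0969 and 0.0825. Leaving out those libraries left 0, 1 and 3 genes called among all genes.

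C4b has a close copy, C4a, within 95.1 kb on the same chromosome, and the authors' treatment of reads matching both is not given in the sources used here. C4a had 20, 32 and 7 reads in IDH1_R132H tumours, 28, 24 and 37 reads in IDH1WT tumours and 15, 33 and 34 reads in PDGFA tumours, against 16, 16 and 17 reads in normal brain. Its log2 fold change was 0.61 (SE 0.32, edgeR adjusted p 0.278). The ratio of C4b to C4a reads was 14.33 to 45.1 in tumours, against 6.44 to 10.5 in normal brain, with no overlap.

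C3, the component on which the branches of the cascade converge, lies at chr17:57203970-57228136. It measured 2.998, 4.07 and 9.08 CPM in IDH1_R132H tumours, 8.81, 3.05 and 6.30 CPM in IDH1WT tumours and 1.79, 20.9 and 15.9 CPM in PDGFA tumours, against 1.39, 1.76 and 2.10 CPM in normal brain. PDGFA tumours 2 and 3 were the highest of the 12 libraries, PDGFA tumour 1 fell among the normal brains, and the other tumours were all above them. For tumours the log2 fold change of C3 was 2.08 (SE 0.65, edgeR adjusted p 0.0789), and 2.24 without PDGFA tumour 1 (SE 0.41, edgeR adjusted p 0.00508). Relative to C1qa, C3 stood at 0.0919 to 0.224 in IDH1_R132H tumours, 0.153 to 0.322 in IDH1WT tumours and 0.435 to 0.783 in PDGFA tumours (ratio of CPM), against 0.128 to 0.242 in normal brain. The 3 PDGFA ratios were above those of the other 9 libraries, a pattern picked out after the values were seen and not tested. In PDGFA tumour 1 the ratio of 0.696 came from 16 C3 reads and 23 C1qa reads. Its C1qa, at 2.57 CPM, was the lowest of the 12 libraries.

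Serping1 encodes the C1 inhibitor, a serine protease inhibitor that blocks C1r and C1s, at chr2:84765387-84775444. It measured 6.81, 9.67 and 20.9 CPM in IDH1_R132H tumours, 14.2, 9.02 and 8.47 CPM in IDH1WT tumours and 2.68, 18.8 and 15.6 CPM in PDGFA tumours, against 4.50, 5.71 and 6.48 CPM in normal brain. PDGFA tumour 1 was the lowest library, and the lowest of the other tumours was just above the highest normal brain. On the log2 scale the fold change was 1.07 (SE 0.49, edgeR adjusted p 0.207), and 1.22 without PDGFA tumour 1 (SE 0.32, edgeR adjusted p 0.0267).

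C3ar1 encodes the receptor of the C3a fragment and lies at chr6:122847138-122856161. It measured 4.50, 7.12 and 12.04 CPM in IDH1_R132H tumours, 3.71, 6.34 and 8.47 CPM in IDH1WT tumours and 0.447, 10.5 and 10.4 CPM in PDGFA tumours, against 1.04, 0.878 and 1.84 CPM in normal brain. PDGFA tumour 1, with 4 reads, was below every normal brain, and each other tumour, from 3.71 CPM up, was above all of them. For C3ar1 the log2 ratio of tumours to normal brain was 2.45 (SE 0.72, edgeR adjusted p 0.0640), next to C4b the largest of the 9, and 2.62 without PDGFA tumour 1 (SE 0.40, edgeR adjusted p 0.00256).

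C5ar1, the gene of the C5a receptor at chr7:16246743-16259540, was near the limit of counting. It had 2, 8 and 13 reads in IDH1_R132H tumours, 8, 14 and 11 reads in IDH1WT tumours and 0, 15 and 12 reads in PDGFA tumours, against 2, 2 and 6 reads in normal brain. The groups overlapped, also without PDGFA tumour 1. For C5ar1 the log2 ratio was 1.52 (SE 0.85, 95% interval -0.45 to 3.48, edgeR adjusted p 0.304) and did not pass without PDGFA tumour 1 either (log2 1.69, SE 0.69, edgeR adjusted p 0.129).

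Leaving out IDH1_R132H tumour 3 changed none of the calls in tumours against normal brain. C4b stood at log2 2.69 (SE 0.42, edgeR adjusted p 0.0177), C3 at 1.88 and Serping1 at 0.87 without it. That library had the highest C1qb, C1qc, Serping1, C3ar1 and C5ar1 values among the 12.

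Each tumour group was then set against the same 3 normal brains, so these comparisons share their controls. C4b was called in each of them and was the only one of the 9 genes called in any. In IDH1_R132H tumours, where 7.17% of all genes passed (4.83% as higher), C4b rose 5.91-fold (log2 2.56, SE 0.45, edgeR adjusted p 0.0153). In IDH1WT tumours, where 1.72% passed (1.57% as higher), it rose 7.60-fold (log2 2.93, SE 0.46, edgeR adjusted p 0.0221). In PDGFA tumours, where 0.303% passed (0.258% as higher), it rose 5.59-fold (log2 2.48, SE 0.45, edgeR adjusted p 0.0472). The call in IDH1_R132H tumours was lost without IDH1_R132H tumour 2 or any 1 normal brain, and that in IDH1WT tumours without IDH1WT tumour 2 or 3 or any 1 normal brain, with edgeR adjusted p of at most 0.0859 and 0.145. In PDGFA tumours the call sat close to the threshold and was lost in 11 of 19 alternative settings, with an adjusted p of at most 0.240. Without PDGFA tumour 1 the number of the 9 genes called was 5 in IDH1_R132H tumours, where 12.2% of all genes passed (7.93% as higher), 6 in IDH1WT tumours, where 5.79% passed (4.88% as higher), and 7 in PDGFA tumours, where 4.40% passed (3.59% as higher).

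Libraries failed to overlap, all higher, for 7 of the 9 genes in IDH1_R132H tumours, against 19.4% of all genes, and for 8 of the 9 in IDH1WT tumours, against 17.4%; in PDGFA tumours this held for C4b only, against 8.23%. Over all 8 tumours other than PDGFA tumour 1 it held for 7 of the 9 genes, against 10.5% of all genes. The exceptions were C1ra and C5ar1. In the IDH1WT count C5ar1 was included on a thin margin. IDH1WT tumour 1 had 0.530 CPM (8 reads) and normal brain 3 had 0.525 CPM (6 reads). The C1qa log2 fold change was 1.84 in IDH1_R132H tumours, 1.38 in IDH1WT tumours and 1.15 in PDGFA tumours, with edgeR adjusted p of 0.106, 0.275 and 0.580. These C1qa values were, with PDGFA tumour 1 left out, 1.83, 1.37 and 1.66, with edgeR adjusted p of 0.00923, 0.0484 and 0.0341. C3 stood at 1.57, 1.80 and 2.87, with edgeR adjusted p of 0.210, 0.206 and 0.125, and without PDGFA tumour 1 at 1.55, 1.79 and 3.38, with edgeR adjusted p of 0.0517, 0.0402 and 0.00465. C3ar1 stood at 2.60, 2.26 and 2.48, with edgeR adjusted p of 0.0674, 0.154 and 0.237, and without PDGFA tumour 1 at 2.59, 2.24 and 3.02, with edgeR adjusted p of 0.00480, 0.0137 and 0.00543. The PDGFA value was the one that moved with that library: lower for C1qa, C3 and C3ar1 with it than without it.

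**Figure D2:**
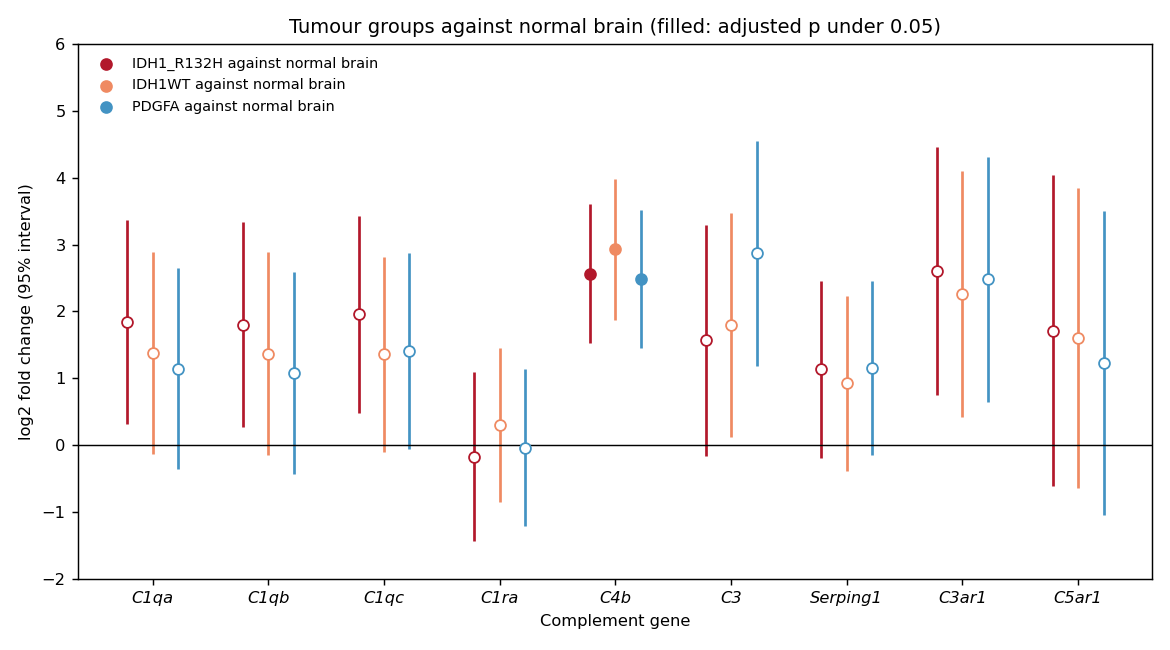
Log2 fold change of each complement gene in IDH1_R132H, IDH1WT and PDGFA tumours over normal brain, from 1 edgeR fit of all 12 libraries. Bars are 95% intervals on 8 residual degrees of freedom and filled points have an adjusted p under 0.05. Only the 3 C4b points, between 2.48 and 2.93, are filled, and the 3 groups' intervals overlap for every gene.

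None of the 9 genes passed edgeR's test in any comparison between tumour groups, where 0% of all 17812 genes did, and none had an unadjusted p under 0.05. Other settings called genes there: IDH1_R132H against PDGFA tumours gave 146 genes with DESeq2, 396 with limma voom and 627 without a low-count filter, IDH1WT against PDGFA tumours gave 12, 0 and 261, and IDH1_R132H against IDH1WT tumours gave 0, 0 and 79. The intervals were wide. IDH1_R132H over IDH1WT tumours gave a log2 fold change of 0.46 for C1qa (95% interval -1.001 to 1.91), -0.36 for C4b (-1.32 to 0.60) and -0.23 for C3 (-1.8 to 1.34). IDH1_R132H over PDGFA tumours gave 0.69 for C1qa (-0.77 to 2.15), 0.08 for C4b (-0.88 to 1.04) and -1.30 for C3 (-2.86 to 0.26). IDH1WT over PDGFA tumours gave 0.24 for C1qa (-1.22 to 1.69), 0.44 for C4b (-0.52 to 1.40) and -1.08 for C3 (-2.58 to 0.43). Each of these intervals held a 2-fold difference in at least 1 direction. C3 in IDH1_R132H over PDGFA tumours passed in 1 of 19 alternative settings, the fit without a low-count filter (log2 -1.38, edgeR adjusted p 0.00658).

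Per kilobase of exon, the order of levels in tumours was C1qa at 26.8 ± 12.01, C1qb at 23.3 ± 10.9, C1qc at 15.2 ± 7.38, C4b at 14.8 ± 5.50, Serping1 at 5.07 ± 2.56, C3ar1 at 1.64 ± 0.868, C3 at 1.58 ± 1.26, C5ar1 at 0.400 ± 0.301 and C1ra at 0.236 ± 0.0677 CPM per kb (SD, n = 9). In this order C4b exceeded Serping1, and Serping1 exceeded C3ar1, by more than the larger of the SDs and in 9 of 9 tumours; all other neighbours were closer than 1 SD. The order was the same without PDGFA tumour 1, and there C1qb over C1qc and C3 over C5ar1 also exceeded 1 SD, by factors of 1.18 and 1.02. In normal brain the order was C1qa at 9.52 ± 5.49, C1qb at 8.53 ± 2.51, C1qc at 4.99 ± 2.20, Serping1 at 2.39 ± 0.428, C4b at 2.32 ± 0.374, C3 at 0.340 ± 0.0695, C3ar1 at 0.291 ± 0.119, C1ra at 0.227 ± 0.138 and C5ar1 at 0.126 ± 0.0674 CPM per kb (SD, n = 3). There C1qb over C1qc, C1qc over Serping1 and C4b over C3 were the gaps above 1 SD, each in 3 of 3 brains. C4b thus stood level with Serping1 in normal brain and level with C1qc in tumours.

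Since C1q is a microglial product, the genes were also set against 16 microglia markers. None of the 16 passed edgeR's test in tumours against normal brain and 2 had an unadjusted p under 0.05, with a median log2 fold change of 0.65. With PDGFA tumour 1 left out, 6 of the 16 were called, all as higher (median 0.82). Low microglia markers were among the values that set PDGFA tumour 1 apart, so this gain was partly built into the choice. Leaving out any other single tumour gave 0 or 1 called. Over the 19 alternatives the number ran from 0 to 8, with 1 by DESeq2, 7 by limma voom and 8 without a low-count filter. Of all genes, 13.5% were called without PDGFA tumour 1, 11.7% by DESeq2, 33.7% by limma voom and 5.19% without the filter. Homeostatic markers were near their normal level, Tmem119 at 0.27 (SE 0.52, edgeR adjusted p 0.796) and P2ry12, an ADP receptor of resting microglia, at -0.30 (SE 0.43, edgeR adjusted p 0.720), while Tyrobp, a signalling adaptor, stood at 1.31 (SE 0.52, edgeR adjusted p 0.147). The summed markers ranged over 325.2 to 522.8 CPM in IDH1_R132H tumours, 270.4 to 382.0 CPM in IDH1WT tumours and 60.3 to 435.3 CPM in PDGFA tumours, against 175.3 to 287.0 CPM in normal brain. All 16 markers had reads in all 12 libraries.

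On the log2 CPM scale less the mean of those markers, C1qc ran from 0.54 to 1.33 in tumours, against -0.24 to 0.11 in normal brain. C4b ran from 1.75 to 3.48 in tumours, against 0.21 to 0.52 in normal brain, and C3ar1 from -1.96 to -0.61 in tumours, against -3.04 to -2.74 in normal brain. These 3 of the 9 genes were higher in every tumour without overlap on this scale, where 1.63% of all genes were; PDGFA tumour 1 was included. C1qa ran from 0.14 to 1.13 in tumours, against -0.44 to 0.28 in normal brain, and C1qb from -0.34 to 1.105 in tumours, against -0.16 to -0.11 in normal brain, with PDGFA tumour 1 the lowest for both. Without it, 5 of the 9 genes did not overlap, against 1.66% of all genes. The part of cell number in these differences was not tested.

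**Figure D3:**
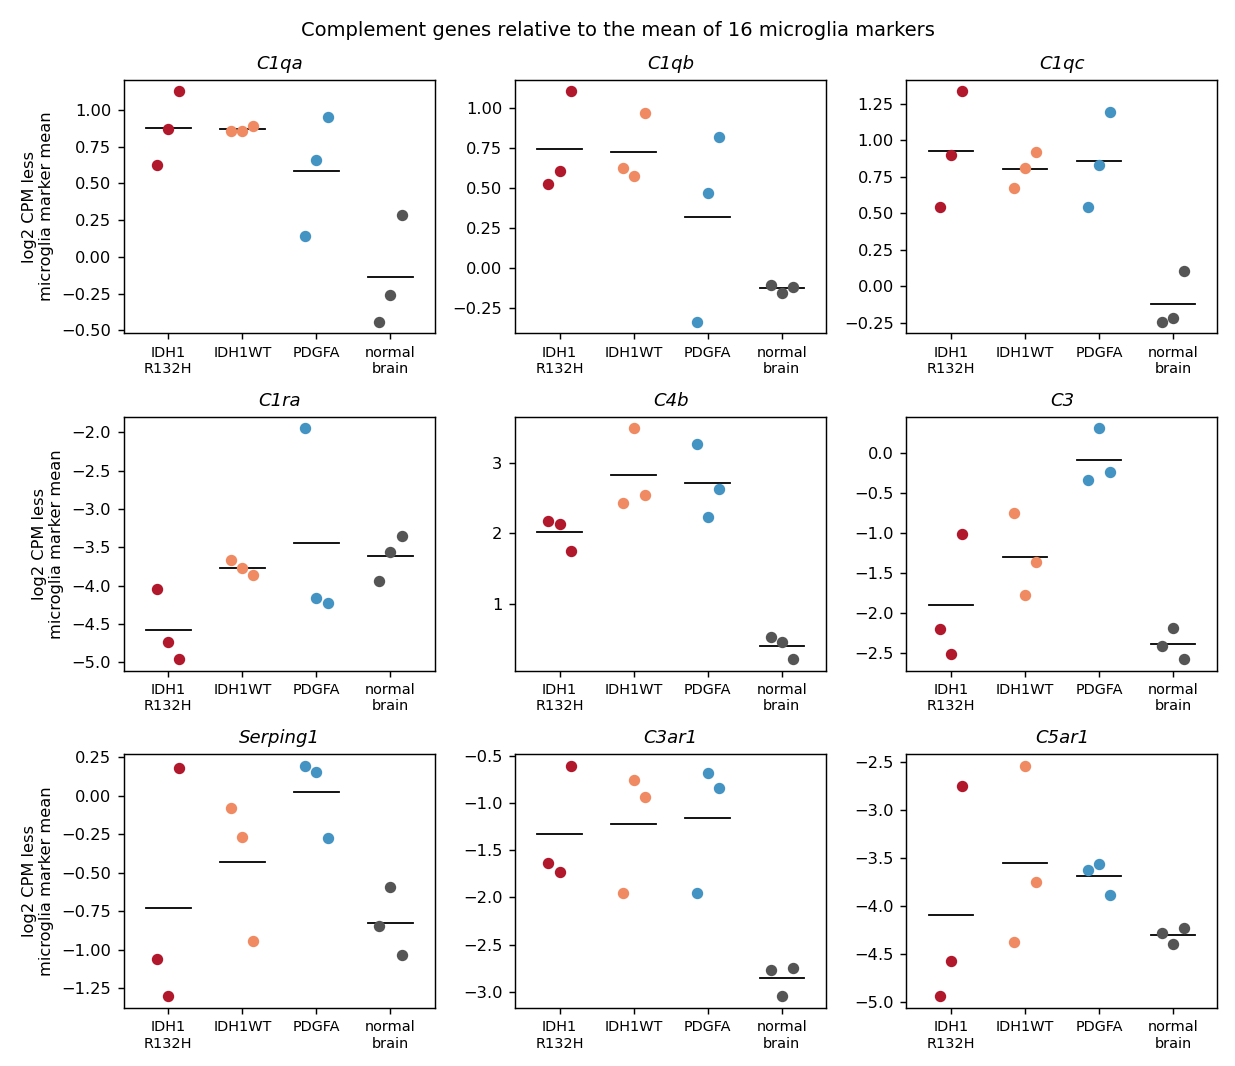
Log2 CPM of each complement gene less the mean log2 CPM of 16 microglia markers in the same library. Points are libraries, lines are group means, and the vertical axis differs between panels. C1qc, C4b and C3ar1 lie above all 3 normal brains in all 9 tumours, and for C3 the 3 PDGFA points are the highest of the 12 libraries. PDGFA tumour 1 has the lowest marker mean of the 12, at 1.33, and a C3 level among the normal brains.

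Other marker lists moved in both directions in tumours against normal brain. Astrocyte markers had a median log2 fold change of -0.14 (3 of 10 above 0) and choroid plexus markers -0.71 (0 of 6 above 0). Fibroblast and oligodendrocyte markers stood at 0.23 and 0.17 (6 of 8 above 0 in each). Of 9 reactive astrocyte markers 2 were called higher in tumours, where 3.71% of all genes were. In this list 7 had an unadjusted p under 0.05, and the median log2 fold change was 1.98. The called genes were Gfap, the intermediate filament of astrocytes, at 2.20 (SE 0.59, edgeR adjusted p 0.0494), and Osmr, the oncostatin M receptor, at 1.52 (SE 0.40, edgeR adjusted p 0.0494). Both sat at the threshold and were lost in 12 and 11 of 19 alternative settings. Without PDGFA tumour 1 the reactive astrocyte list had 7 of 9 called, where 13.5% of all genes were. Their summed level was 437.3 to 1177 CPM in IDH1_R132H tumours, 406.3 to 869.3 CPM in IDH1WT tumours and 123.2 to 992.4 CPM in PDGFA tumours, against 140.5 to 196.1 CPM in normal brain. Of 13 monocyte and macrophage markers 9 were tested, with a median log2 fold change of 0.32, and 1 was called, where 5.22% of all genes were. That gene, fibronectin (Fn1), stood at 1.60 (SE 0.30, edgeR adjusted p 0.0181). The sums of the 13 markers were 209.2 to 370.4 CPM in IDH1_R132H tumours, 254.9 to 484.1 CPM in IDH1WT tumours and 142.7 to 322.1 CPM in PDGFA tumours, against 108.8 to 131.3 CPM in normal brain. None of 8 neutrophil markers was expressed enough to be tested.

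As a description over the 12 libraries, which share the split into tumours and normal brain, each gene was set beside the mean log2 CPM of several marker lists. C4b had r = 0.93 with the oligodendrocyte precursor markers, 0.81 with the reactive astrocyte markers, 0.73 with the monocyte and macrophage markers and 0.58 with the microglia markers. Over the 9 tumours these were 0.79, 0.73, 0.90 and 0.82, and over the 8 tumours other than PDGFA tumour 1 they were 0.44, 0.04, 0.55 and -0.06, so the tumour values for C4b rest on that library. C1qa had 0.95 with the microglia and 0.81 with the astrocyte markers over 12 libraries, 0.99 and 0.97 over the 9 tumours, and 0.93 and 0.63 over the 8. With the reactive astrocyte markers C1qa had 0.87, 0.87 and 0.52 in the same order of libraries. With the monocyte and macrophage markers it had 0.76, 0.77 and -0.47. C3 had 0.88 with the reactive astrocyte and 0.61 with the microglia markers over 12 libraries, 0.81 and 0.61 over the 9 tumours, and 0.75 and 0.33 over the 8. C3ar1 had 0.96 and 0.83 with the same lists over 12 libraries, 0.97 and 0.92 over the 9 tumours, and 0.92 and 0.42 over the 8. Over the 8 tumours the list with the highest r for C3 was the oligodendrocyte list, at 0.84, against 0.07 over 12 libraries. With the precursor markers C3 had -0.80 over the 8 and 0.49 over 12 libraries. Correlations between the 9 genes ran from 0.19 (C1ra with C5ar1) to 0.99 (C1qa with C1qc), and every pair with C1ra was below 0.50.

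**Figure D4:**
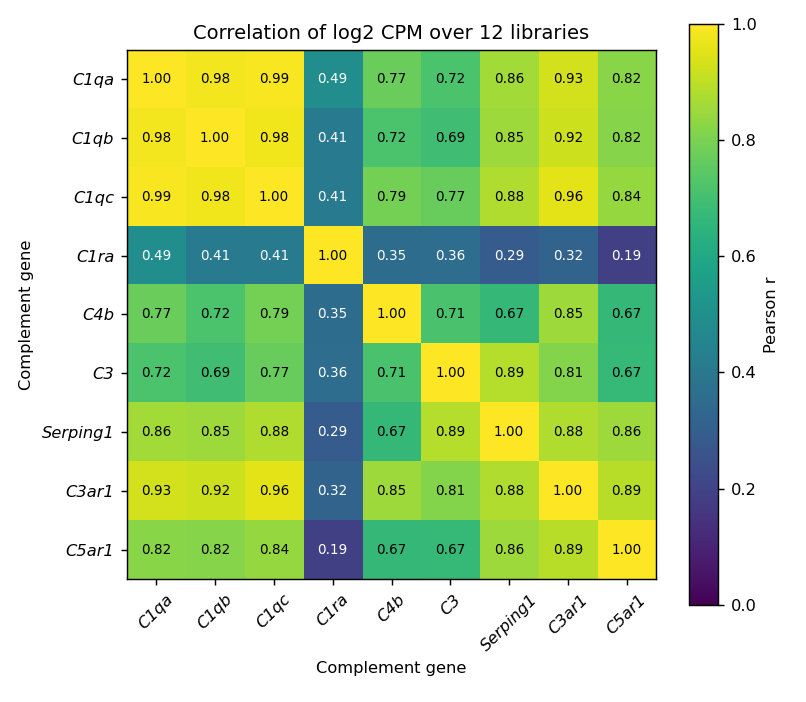
Pearson's r of log2 CPM between each pair of complement genes over 12 libraries, with the colour scale from 0 to 1. The 3 C1q genes form a block at 0.98 to 0.99, C3ar1 joins them at 0.92 to 0.96, and C1ra, the gene with few reads, stays below 0.50 with all others.

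The genes most like each member, up to 3 for each, were taken from 10143 tested genes with a mean log2 CPM of at least 3. For C1qa these were Tyrobp (r = 0.99) and Mpeg1; for C1qb Laptm5 (r = 0.99), Nckap1l and Ctss; for C1qc Tyrobp (r = 0.97), Mpeg1 and Inpp5d. C4b was most like Knl1 (r = 0.96), Top2a and Igsf10, and C3 most like Csf1 (r = 0.93), Nap1l1 and Cd109. Serping1 was most like Klf6 (r = 0.95), Add3 and Npm1, C3ar1 most like Cd44 (r = 0.97), Slco2b1 and Gfap, and C5ar1 most like Bcl2l11 (r = 0.96), Il4ra and Egln1. C1ra had no gene above 0.83, the value for Sys1, followed by Rpp14 and Supt3. Over the 9 tumours alone, none of the first 3 names stayed for C1qa, C1qc, C1ra, C4b, C3 and Serping1. C4b was then most like Zbtb33 (r = 0.97), Snx5 and Thap12. C1qb kept Laptm5 and Nckap1l, while C3ar1 kept Cd44 (r = 0.98) and C5ar1 kept Bcl2l11 (r = 0.98), each in first place. With a prior count of 0.5 in place of 2, all 3 names stayed for 7 of the genes, and 1 of 3 for C3ar1 and C5ar1.

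Of 58 other complement genes listed, 34 were tested, and their median log2 fold change in tumours was 0.17. Of these, 2 were called as higher and 0 as lower, which is 5.88% of the 34, against 5.22% of all genes called and 3.71% called as higher. The count was 6 of 36 without PDGFA tumour 1, all as higher, where 8.60% of all genes were called as higher. Masp1, a protease of the lectin branch, had 11.6 ± 4.58 CPM in tumours (SD, n = 9) and 3.39 ± 0.823 CPM in normal brain (SD, n = 3), which is a log2 difference of 1.74 (SE 0.36, edgeR adjusted p 0.0237). Cd93, a surface protein once described as a C1q receptor and abundant in endothelium, had 72.7 ± 31.5 CPM in tumours (SD, n = 9) and 18.0 ± 8.52 CPM in normal brain (SD, n = 3), which is a log2 difference of 2.01 (SE 0.45, edgeR adjusted p 0.0294). Endothelial markers were called higher for 5 of 10 genes, where 3.71% of all genes were, and the part of these markers in the Cd93 value was not tested. Itgax, the alpha chain of complement receptor 4, had 2.79 (SE 0.78, edgeR adjusted p 0.0559) in all tumours and passed in IDH1_R132H tumours alone, at 4.02 (SE 0.84, edgeR adjusted p 0.0208), beside Masp1 (2.18, SE 0.41, edgeR adjusted p 0.0178) and Cd93 (2.06, SE 0.51, edgeR adjusted p 0.0327). The calls of Masp1 and Cd93 in all tumours were lost without any 1 normal brain, and that of Cd93 also without IDH1_R132H tumour 2, with edgeR adjusted p of at most 0.142 and 0.161. In IDH1_R132H tumours the calls of all 3 were lost without IDH1_R132H tumour 2 or any 1 normal brain, and that of Cd93 also without IDH1_R132H tumour 3. Whether Itgax differs between tumour groups is not shown by that call.

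By role, 1 of 6 tested initiation genes and 1 of 8 tested receptor genes were called, where 5.22% of all genes were, with median log2 fold changes of 0.80 and 0.69. Neither of the 2 tested alternative-branch genes, nor the 2 tested terminal genes, nor any of the 16 tested regulators was called; the regulators had a median of -0.14. Among the genes with the next smallest p, Cd46, a surface regulator that helps inactivate C3b and C4b, stood at -0.57 (SE 0.19, edgeR adjusted p 0.0895). Itgb2, the shared beta chain of complement receptors 3 and 4, stood at 1.31 and Masp2, a lectin-branch protease with few reads, at 1.30, and C1s1, the protease partner of C1r, at 0.99. Lrp1 and Calr, an endocytic receptor and the chaperone calreticulin, which are described as acting together in the uptake of C1q-marked cells, stood at 0.63 and 0.53. The edgeR adjusted p of these 5 genes ran from 0.139 to 0.225.

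**Figure D5:**
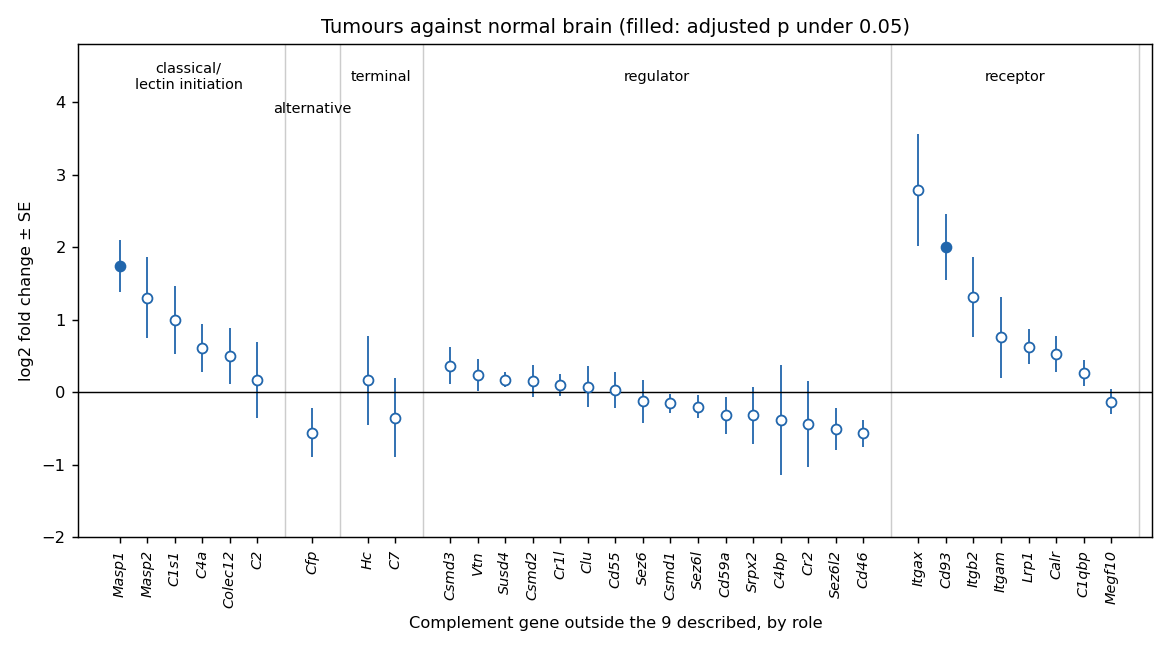
Log2 fold change with its SE for 33 of the 34 tested complement genes other than the 9, in tumours over normal brain, ordered within 5 roles. Filled points have an adjusted p under 0.05. Masp1 (1.74) and Cd93 (2.01) are filled, Itgax (2.79) is the highest point, and the 16 regulators lie around 0.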

How the data were processed

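Per the labels' protocols, RNA was extracted with RecoverAll, a kit for fixed tissue. The build was GRCm38 and the tools named were featureCounts 1.5.1 (Subread), STAR 2.5.2b and DESeq2 1.16.1, per the submitters' processing notes. How strand and multi-mapping reads were treated is not given in the sources. The authors deposited raw counts per gene, and a table of log2 values (rlog), used only as an alternative. Replicate numbers follow record order and pair nothing. Libraries of a group differed beyond sampling noise, with a chi-square per gene from 2.60 (normal brains 1 and 2) to 347.

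Genes were named from GENCODE M21. The counts of 12 libraries were fitted with edgeR 4.0.16 (R 4.3.3), TMM scaling, filterByExpr (minimum 10, total 15) and a robust quasi-likelihood fit with 1 coefficient per group and 8 residual degrees of freedom. An adjusted p under 0.05 was called. Log2 CPM used a prior count of 2. Calls were repeated with DESeq2 1.42.0, limma 3.58.1 and libraries left out, and the fit was tested on simulated data. The members and lists were chosen with earlier results of these data known. Named genes were the 9 members, the other complement genes called or, until 10 were named, of smallest p, and for each member the 3 genes of highest r. Some named genes and 1 allele are not reported here.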

Additional observations from a re-analysis of the deposited data

Results flagged for a closer look

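Among the 9 tumours, 5 of the 9 complement genes had a lowest library separated from the next by more than Dixon's 95% critical value, and it was PDGFA tumour 1 each time. On the log2 CPM scale it stood at 1.47 for C1qa, against 4.33 for the next tumour, at 0.995 for C1qb, against 4.05, and at 1.88 for C1qc, against 4.28. For C4b it stood at 4.599, against 5.97, and for C3ar1 at -0.618, against 1.97. Chance flags about 1 in 20 groups, and these 5 values come from 1 library. In the same library the microglia markers summed to 60.3 CPM and the astrocyte markers to 1008 CPM, each the lowest of the 12, and the oligodendrocyte markers to 11240 CPM, the highest. Their part in the low complement values was not tested.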

How the results depend on the processing

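The 9 genes and the 3 normal brains limit what can be said. In tumours against normal brain the number of the 9 genes called was 1, against 5 with DESeq2, 7 without a low-count filter, 7 with limma voom and quality weights, 7 without IDH1_R132H tumour 3 and PDGFA tumour 1, and 0 to 7 when 1 library was left out. The first 4 of these called 11.7%, 5.19%, 33.7% and 15.7% of all genes. In IDH1_R132H tumours against normal brain the number was 1, against 5, 7, 5, 5 and 0 to 5 in the same order, where the 4 called 13.7%, 5.81%, 41.1% and 11.6% of all genes. In IDH1WT tumours it was 1, against 2, 6, 5, 6 and 0 to 6 (7.15%, 3.66%, 16.9% and 6.96%). In PDGFA tumours it was 1, against 3, 7, 2, 7 and 0 to 7 (2.72%, 2.25%, 2.45% and 5.19%), and 0 with limma on rlog values, which called 0% of all genes. Between IDH1_R132H and PDGFA tumours it was 0, and 1 without a low-count filter (1.48%). The cause of these differences was not tested. The C4b log2 fold change in tumours ranged from 1.57 to 2.84 over 19 alternatives and was called in 16.

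The signs seen to reverse belonged to uncalled values. They included C1ra in tumours against normal brain (-0.27 to 0.64 with 1 library left out), C3 in IDH1_R132H against IDH1WT tumours (-0.80 to 0.16), C4b in IDH1_R132H against PDGFA tumours (-0.34 to 0.58, and -0.20 without both libraries) and C1qa in IDH1WT against PDGFA tumours (-0.30 to 0.80, and -0.28 without both). C1ra also changed sign in each tumour group against normal brain. Without normal brain 3 it went from -0.17 to 0.44 in IDH1_R132H tumours and from -0.04 to 0.58 in PDGFA tumours. Without normal brain 1 it went from 0.30 to -0.00098 in IDH1WT tumours. C1ra and C5ar1, at 15 reads or fewer, are limited by depth. No paired analysis was possible because the replicate numbers follow record order and the labels pair no samples.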
